A study of Saccharomyces cerevisiae with 6 samples.

Results

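The DNA copied by wild-type cells between 30 and 40 min after release from G1 was read from the ratio of sequencing reads at these times, window by window along the 16 chromosomes. The windows were 1 kb long and did not overlap, and those with over 600 reads in both libraries were kept. They numbered 11576 of 12070, or 95.9%. Budding yeast of the W303 strain with an HA-tagged wild-type polymerase (Pol2-3HA::KAN) was grown in rich medium at 24 °C, arrested with alpha-factor and released into S phase by adding pronase. The 40 min library held 29468649 reads over all 12070 windows and the 30 min library 40161464. There was 1 library for each time, so no difference has a replicate check, no test was run and no p-value is given. No G1 library enters the ratio. The other libraries of the series are wild type in G1 and the *pol2-REL* mutant (pol2-REL-3HA::KAN, with 3 substitutions in the catalytic core of Pol2) at 40 min, at 30 min and in G1. Those of *pol2-REL* served here to place origins and to rank the genome without using any wild-type library.

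DNA replication in budding yeast starts at many short origins, each of which sends a fork to the left and to the right. Origins fire in a reproducible order, and DNA between them is copied when a fork arrives or when forks from neighbouring origins meet. In a population of cells a locus therefore goes from unreplicated to replicated over a stretch of time. A locus copied in most cells before 30 min, and a locus still uncopied at 40 min, both gain little between these times. The windows that gain are those that forks crossed, or origins that fired, in between.

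The median window held 2451 reads at 40 min and 3398 at 30 min. The count ratio of each window was divided by the median of all windows, 0.713, so that 1 stands for the median window. This 40/30 ratio shows how much a window gained in reads relative to the rest of the genome, not how much DNA was made in total. Gain is used below in this sense. A window was called high at a ratio of at least 1.1 and low at a ratio of at most 0.909. Of the 11576 windows 3579 were high (30.9%) and 3313 were low (28.6%). The central 90% of windows ran from 0.800 to 1.37. The SD of the log2 ratio was 0.240, against 0.0386 from counting error. The spread between adjacent windows, as an SD per window, was 0.0538, so most of the spread was shared by neighbours.

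Gains and deficits came in long blocks. After smoothing with a Gaussian kernel of 2 kb SD, 178 unbroken stretches stood at 1.1 or above, with a total of 3523 kb and a median length of 12 kb. The low stretches numbered 141, with a total of 3249 kb and a median of 19 kb. The longest high stretch covered 121 kb of chromosome IV, from 393001 to 514000 (SacCer2 coordinates throughout), where 375580 reads at 40 min against 366891 at 30 min gave a pooled ratio of 1.44 (95% interval 1.43 to 1.44). Intervals here are exact Clopper-Pearson intervals on the share of reads from the 40 min library, turned into a ratio, and cover counting error only. Next in length were 97 kb of chromosome X from 376001 to 473000, at 1.28, and 87 kb of chromosome XV from 281001 to 368000, at 1.24. The stretch on chromosome IV was thus the longest and also the one that gained most of the 8 longest. Chromosome XIII from 242001 to 312000 reached 1.40 over 70 kb, and chromosome III from 17001 to 85000 reached 1.39 over 68 kb. The longest low stretch was 146 kb of chromosome II, from 642001 to 788000, with 343228 reads at 40 min and 577094 at 30 min, a ratio of 0.834 (0.831 to 0.838). It was followed by 93 kb of chromosome VII from 978001 to 1071000, at 0.829.

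Origins were placed as maxima of the *pol2-REL* S phase over G1 profile, at least 10 kb apart and 10 kb from an end, which gave 211 positions. They are called origins here but were not matched to annotated ones. They were ranked by the smoothed *pol2-REL* ratio of 30 min over G1 counts, with a genome median of 1, and the upper 70 were called early, the lower 70 late and the remaining 71 middle. The last early origin had a *pol2-REL* ratio of 1.1299 and the first middle one 1.1296, and the boundary between middle and late lay between 1.037 and 1.035. The classes are therefore ranges of a continuum and not separate kinds.

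Around early origins the gain was in the flanks. Within 1 kb of the centre the mean 40/30 ratio was 1.12 (95% interval 1.12 to 1.13), with each window weighing the same. These windows held 931601 reads at 40 min and 1030109 at 30 min. Of these, 77965 and 206008 at 40 min and 57700 and 156448 at 30 min came from 2 windows of the ribosomal DNA repeats. The pooled reads therefore do not give this mean. Leaving out the 2 windows, decided once the values were known, lowered the mean from 1.123 to 1.116, outside its counting interval of 1.120 to 1.127. Intervals on such means are those of the pooled reads, rescaled to the mean. The mean ratio stood at 1.19 at 4 to 6 kb and at 1.22 (1.22 to 1.23) at 8 to 12 kb. It then came down to 1.16 at 15 to 20 kb and 1.04 at 25 to 35 kb. By single kb the highest mean was 1.23, at 8 kb on either side. The profile thus has a dip at the origin between a pair of shoulders. Dividing each window by a running median along its chromosome lowered both, to 1.054 at the centre and 1.15 in the flanks.

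**Figure D1:**
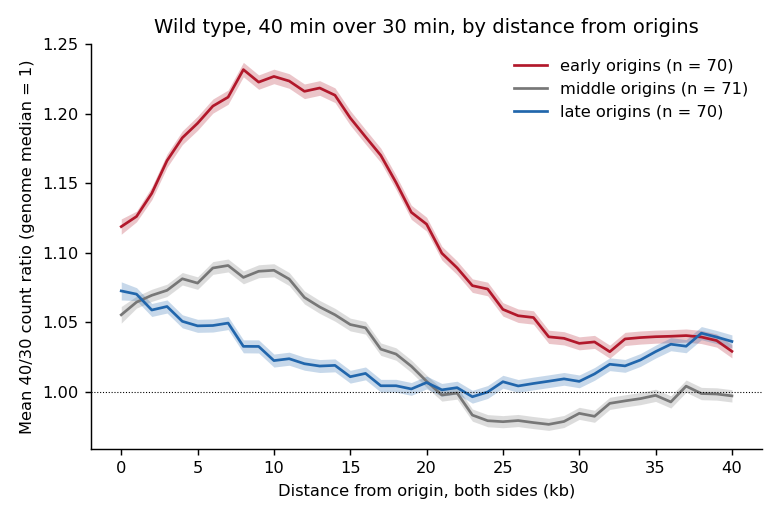
Mean 40/30 count ratio of wild type (genome median 1) by distance from early, middle and late origins in kb, both sides together; bands are 95% counting intervals. Early origins dip to 1.12 at the centre and reach 1.23 at 8 kb, while late origins are highest, at 1.07, at the centre itself.

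The shape held for most early origins taken singly. Of the 65 early origins with values on both sides, 51 (78.5%) had a centre below both flanks at 8 to 12 kb, against 26.9% of all windows with such values. Both flanks were high in 48 of the 65. The like share over all windows was not counted, and of single windows 30.9% were high. The mean of the flanks was 1.11 times the centre at the median origin, and ran from 0.909 to 1.28 times. Left and right flanks had close medians, 1.23 and 1.21. Middle origins had the dip in 31 of 69 (44.9%), and late origins in 14 of 66 (21.2%).

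The deepest dip among early origins lay on chromosome XV at 277001 to 278000. That window held 2773 reads at 40 min and 4122 at 30 min, and the centre stood at 0.979 between flanks of 1.26 on the left and 1.25 on the right. The next was on the same chromosome at 167001 to 168000, with 2825 reads at 40 min and 4068 at 30 min and a centre of 0.982 between 1.21 and 1.19. At both places the origin itself gained no more than the median window while DNA about 10 kb away gained more. On chromosome IV at 913001 to 914000 the whole neighbourhood was higher, with a centre of 1.11 between 1.41 and 1.34.

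The first of the 5 origins with the highest *pol2-REL* ratio at 30 min is a window of the ribosomal DNA repeats on chromosome XII and is described with that region. The second, on chromosome I at 176001 to 177000, held 3823 reads at 40 min and 4981 at 30 min, a ratio of 1.08. At 10 kb to its left there were 3246 reads at 40 min and 3674 at 30 min (1.24), and at 10 kb to its right 3808 at 40 min and 3974 at 30 min (1.34). Both sides gained more than the origin. On chromosome IX at 411001 to 412000 the origin window held 4553 reads at 40 min and 5380 at 30 min, a ratio of 1.19, and the windows 10 kb away stood at 1.44 on the left and 1.43 on the right. On chromosome I at 159001 to 160000 the origin had 1.12 (3983 reads at 40 min, 4984 at 30 min), with 1.15 on the left and 1.25 on the right. At 147001 to 148000, also on chromosome I, it had 1.0999 (3854 reads at 40 min, 4915 at 30 min), with 1.31 and 1.19. All 4 of these origins outside the rDNA were lower than the windows 10 kb away on each side. Those on chromosome I are neighbours and not separate cases. The window to the right of 147001, at 157001, lies next to the origin at 159001. The window to the left of 159001, at 149001, lies next to the origin at 147001.

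Late origins had the opposite shape on average. The mean 40/30 ratio was 1.07 (1.067 to 1.075) within 1 kb of the centre, 1.048 at 4 to 6 kb, 1.03 at 8 to 12 kb and 1.007 at 15 to 20 kb. Over these 20 kb the gain was thus highest at the origin and fell away with distance. Farther out it was higher again, at 1.013 for 25 to 35 kb and 1.04 at 38 kb. Of the 66 late origins with values on both sides, 34 (51.5%) had a centre above both flanks, against 5 of 65 early origins (7.69%) and 25.6% of all windows. Middle origins lay between, with 23 of 69 (33.3%). Ratios at the centres of all 70 late origins ran from 0.780 to 1.57, with 26 high (37.1%) and 6 low (8.57%), beside 30.9% and 28.6% of all windows.

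The clearest single example was a late origin on chromosome IV at 1302001 to 1303000, with 2742 reads at 40 min and 3553 at 30 min. Its centre stood at 1.04 while the flanks were at 0.847 and 0.853, so the origin rose out of DNA that gained little. The origin at 211001 to 212000 of the same chromosome was alike, with 2499 reads at 40 min, 3559 at 30 min, a centre of 1.03 and flanks of 0.831 and 0.852. On chromosome XV at 874001 to 875000 a centre of 1.25 stood above flanks of 1.11 and 1.09.

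The 5 origins with the lowest *pol2-REL* ratio did not behave alike. On chromosome XII at 294001 to 295000 the origin held 2014 reads at 40 min and 3252 at 30 min, a ratio of 0.869. On chromosome XIII at 227001 to 228000 it held 2175 at 40 min and 3115 at 30 min (0.979). By the origin window alone, these had gained no more than the median window. Averaged within 1 kb of the centre, the origin on chromosome XIII stood at 1.02, above its flanks of 0.939 and 0.994. On chromosome XV at 310001 to 311000 the ratio was 1.19 (2583 reads at 40 min, 3037 at 30 min). On chromosome IV it was 1.24 at 407001 to 408000 (3110 reads at 40 min, 3518 at 30 min) and 1.61 at 505001 to 506000 (3540 at 40 min, 3081 at 30 min). The last is among the highest ratios of the genome and lies in the longest high stretch.

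Whether DNA between origins gained varied with the distance between them. The midpoints of 187 neighbouring pairs, each read over 3 windows, had a median ratio of 1.22 where the origins were up to 20 kb apart (14 pairs), 1.17 at 20 to 30 kb (32 pairs) and 1.103 at 30 to 40 kb (28 pairs). The median was 0.986 at 40 to 50 kb (32 pairs), 0.898 at 50 to 70 kb (39 pairs) and 0.893 over 70 kb (42 pairs). Midpoints of close pairs thus gained, and those of wide pairs lagged behind the median window. Of the 74 midpoints in gaps up to 40 kb, 42 were high (56.8%) and 13 low (17.6%), whereas of the 81 in gaps over 50 kb, 2 were high (2.47%) and 42 low (51.9%), beside 30.9% and 28.6% of all windows. Across the 187 pairs the ratio fell with the gap, with a Spearman's rho of -0.50, where neighbouring pairs share an origin and all pairs share the same libraries.

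**Figure D2:**
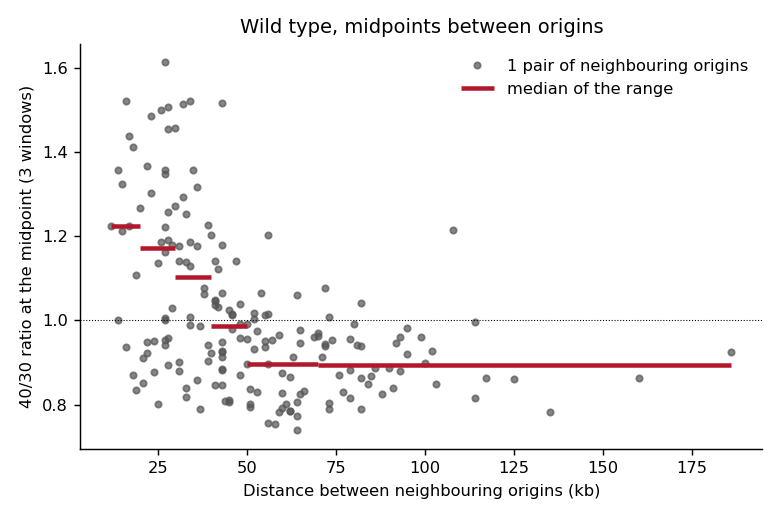
40/30 ratio of wild type at the midpoint of each pair of neighbouring origins (3 windows) against the distance between them in kb; bars are medians of each range of distance. Medians lie at 1.103 or above up to 40 kb and at 0.898 or below beyond 50 kb.

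The highest midpoints within gaps of up to 40 kb were on chromosome IV between the origins at 435001 and 462001, with 9436 reads at 40 min against 8209 at 30 min and a ratio of 1.61. Next were chromosome III between 39001 and 73001, at 1.52, and chromosome XII between 140001 and 156001, also at 1.52. The spread within each range of distance was wide. Midpoints of gaps of 20 to 30 kb ran from 0.801 to 1.61, so that gaps of like length differed.

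Maxima and minima of the smoothed ratio were listed without reference to origins. Peaks had to stand 8 kb or more from each other and 0.06 (log2) above the lower ground beside them. There were 294 of them, and 301 valleys by the same rule. Their heights chose them and are given as a description. Relative to the nearest origin, the peaks lay at a median of 10 kb, and 49.0% of them were 7 to 15 kb away, against 28.7% of all windows. Another 60 peaks (20.4%, against 12.4% of all windows) lay within 3 kb of an origin, of which 31 were late, 22 middle and 7 early. Peaks were thus more frequent 7 to 15 kb from an origin than windows in general, and of those at an origin most were at late or middle ones. Peaks at late origins had a median smoothed ratio of 1.02 and a highest of 1.38.

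Valleys were of separate kinds. Within 3 kb of an origin there were 78 of the 301 (25.9%), and 50 of these were at early, 22 at middle and 6 at late origins. Valleys at early origins had a median smoothed ratio of 1.12, as they are dips inside DNA that gained. Cutting the windows into 3 equal parts by the *pol2-REL* profile placed 119 valleys in the early part, with a median of 1.04, and 73 of these lay within 3 kb of an origin. The 67 valleys in the middle part had a median of 0.865, and the 109 in the late part 0.891. These lay at a median of 18 and 25 kb from the nearest origin. Valleys in the earlier DNA were thus mostly at origins, and the lower ones of the later DNA mostly were not. Origins and parts both come from the *pol2-REL* profile, so DNA near an origin tends to fall in the early part by construction. The share of all windows of each part that lay within 3 kb of an origin was not counted. This split is therefore a description and not a result about valleys. There were exceptions, such as the lowest valley of chromosome VIII, which lay 2 kb from a middle origin.

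Peaks were less frequent far from origins, as 21.1% lay 16 kb or more away, against 48.4% of all windows. At 20 kb or more from any placed origin and from any chromosome end there were 48 peaks. Their smoothed ratios ran from 0.831 to 1.42, so some of them stood below the median window. The highest, on chromosome II at 274001 to 275000, held 2651 reads at 40 min and 2501 at 30 min, a ratio of 1.49 (1.41 to 1.57). On chromosome XVI at 573001 to 574000 there were 3009 reads at 40 min and 3065 at 30 min, a ratio of 1.38. On chromosome VIII at 245001 to 246000 there were 3338 at 40 min and 3683 at 30 min, a ratio of 1.27. The *pol2-REL* 40/30 ratio was 1.36 at the first and 0.946 and 0.941 at the others.

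Ranking all windows by the *pol2-REL* profile, the mean of its 30 and 40 min ratios, showed which part of the programme gained. The windows were cut into 10 equal groups of about 1151. In the earliest group 57.0% were high and 7.73% low, and the pooled ratio was 1.17 (1.17 to 1.18). Without the pair of rDNA windows, a setting chosen after seeing the data, it was 1.14. The next group had 40.6% high and 21.3% low, with a pooled ratio of 1.06. From the third to the sixth group the shares were near the background of 30.9% high and 28.6% low, with pooled ratios from 1.00 to 1.02. In the latest group 17.5% were high and 34.8% low, with a pooled ratio of 0.975 (0.974 to 0.977). The gain thus went mainly to the earlier part of the genome as ranked in *pol2-REL*. When the ranking came from the wild-type 30 min over G1 ratio instead, the latest group stood at 1.09. That ranking shares the 30 min library with the 40/30 ratio, and the cause of the reversal was not tested.

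**Figure D3:**
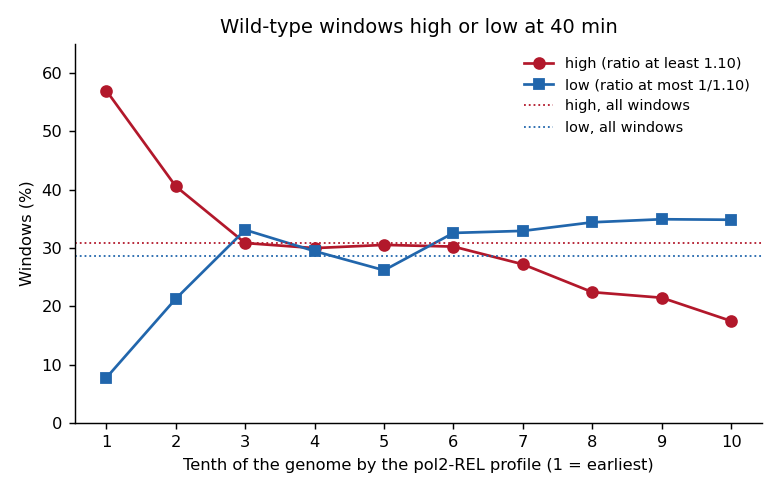
Percentage of wild-type windows with a high or low 40/30 ratio in each of 10 equal groups of windows, from the earliest (1) to the latest (10) by the pol2-REL profile; dotted lines are the shares over all windows, 30.9% and 28.6%. High windows make up 57.0% of the earliest group and 17.5% of the latest.

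The chromosomes did not gain evenly. The median 40/30 ratio was 1.22 on chromosome III and 0.911 on chromosome XIV, the extremes of the 16, and ran from 0.974 to 1.03 on the other 14. Pooled over reads, chromosome III stood at 1.16 (1.16 to 1.17) and chromosome XIV at 0.933 (0.931 to 0.935). The highest chromosome was 1.25 times the lowest. Division by a running median along each chromosome, which takes out differences between chromosomes by construction, left 1.08 times. On chromosome III 61.8% of windows were high and 15.7% low, while on chromosome XIV 13.1% were high and 49.0% low. Within a chromosome the SD of the log2 ratio was lowest on chromosome XIV, at 0.180, and highest on chromosome VI, at 0.284.

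**Figure D4:**
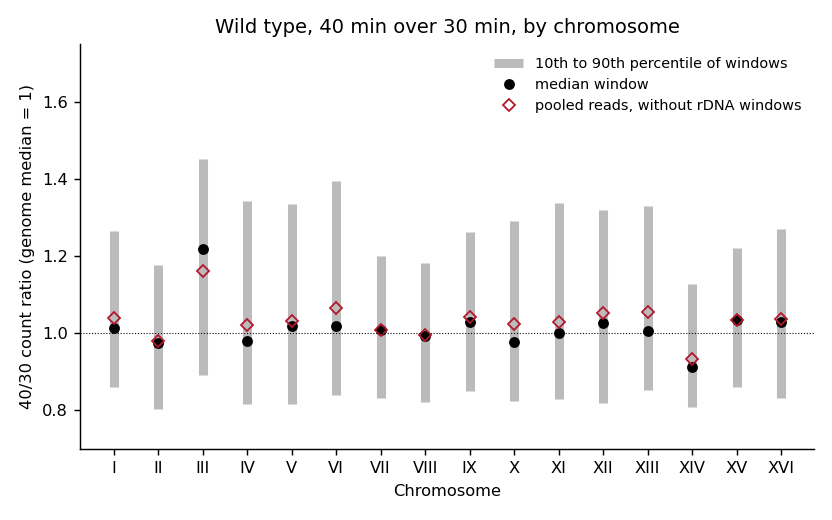
40/30 count ratio of wild type on each of the 16 chromosomes (genome median 1): bars span the 10th to 90th percentile of windows, dots are median windows and diamonds pooled reads. Chromosome III (median 1.22) is above and chromosome XIV (0.911) below the others.

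Within each chromosome the highest called peak and the lowest called valley of the smoothed ratio were taken. A rise that did not come down again before the end of its chromosome was not called as a peak, and the rDNA was left out. On chromosomes VIII, XII, XIII and XVI the highest smoothed window was therefore not a called peak but lay near an end, at 1.31, 1.94, 1.86 and 1.67 in that order. On chromosome III the peak was in the window from 61001 to 62000, with 3378 reads at 40 min and 3149 at 30 min, a ratio of 1.50, and the valley in that from 259001 to 260000, with 2194 at 40 min and 3727 at 30 min, a ratio of 0.826. On chromosome VI the peak window from 143001 to 144000 held few reads, 955 at 40 min and 849 at 30 min, a ratio of 1.58 (1.44 to 1.73), and the valley from 83001 to 84000 held 2340 at 40 min and 4097 at 30 min, or 0.801. On chromosome I the peak from 189001 to 190000 had 3720 reads at 40 min and 3710 at 30 min, or 1.41, and the valley from 94001 to 95000 had 2286 at 40 min and 4076 at 30 min, or 0.787. On these 3 chromosomes, the shortest, each valley window held more reads at 30 min than the peak window and fewer at 40 min, except on chromosome VI, where the peak window is shallow. Chromosome I had 5 placed origins and chromosome VI 4, all of them early. Chromosome III had 6, of which 5 were early.

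Chromosome IV, the longest, held the highest smoothed peak over 30 kb from an end and outside the rDNA. The window from 450001 to 451000 had 3139 reads at 40 min and 2727 at 30 min, a ratio of 1.61 (1.53 to 1.70), and the lowest valley of the chromosome, from 1327001 to 1328000, had 1972 at 40 min and 3615 at 30 min, or 0.765. The median of the chromosome was 0.980, since 30.8% of its windows were high and 33.7% low. On chromosome V the peak from 156001 to 157000 had 3207 reads at 40 min and 2860 at 30 min, or 1.57, and the valley from 467001 to 468000 had 1696 at 40 min and 3533 at 30 min, or 0.673 (0.635 to 0.714), the lowest single window of the genome. On chromosome XIII the peak from 297001 to 298000 had 3328 reads at 40 min and 2894 at 30 min, or 1.61, and the valley from 68001 to 69000 had 2010 at 40 min and 3774 at 30 min, or 0.747. Each of these chromosomes thus held both DNA that gained strongly and DNA that lagged.

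On chromosome X the peak from 429001 to 430000 had 3050 reads at 40 min and 2810 at 30 min, a ratio of 1.52. Its valley from 133001 to 134000 had 1849 at 40 min and 3578 at 30 min, or 0.725, and its smoothed ratio of 0.728 was the lowest of all. On chromosome XI the peak from 435001 to 436000 stood at 1.51 (3246 reads at 40 min, 3019 at 30 min) and the valley from 122001 to 123000 at 0.764 (1974 at 40 min, 3622 at 30 min). Both peaks lie 12 kb from an early origin. On chromosome IX the peak from 396001 to 397000 stood at 1.53 (3664 reads at 40 min, 3358 at 30 min), 15 kb from an early origin, and the valley from 154001 to 155000 at 0.766 (1970 at 40 min, 3606 at 30 min). On chromosome XVI the peak from 766001 to 767000 stood at 1.47 (3275 reads at 40 min, 3133 at 30 min), 11 kb from an early origin, and the valley from 356001 to 357000 at 0.771 (1854 at 40 min, 3373 at 30 min). The peaks of these 4 chromosomes thus lay 11 to 15 kb from an early origin, as did those of chromosomes I, III, V, VII, XIII and XIV. On chromosomes II, IV and XV the nearest origin was a middle one, 11 to 12 kb away. It was a middle one 7 kb away on chromosome VIII, an early one 6 kb away on VI and a late one 84 kb away on XII. The share of all windows 11 to 15 kb from an early origin was not counted.

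On chromosome II the peak from 226001 to 227000 was again a window with few reads, 734 at 40 min and 706 at 30 min, a ratio of 1.46 (1.31 to 1.62), and the valley from 116001 to 117000 had 1894 at 40 min and 3682 at 30 min, or 0.722. Low windows outnumbered high ones there, 33.5% against 19.2%. On chromosome XV the peak from 325001 to 326000 stood at 1.34 (2612 reads at 40 min, 2733 at 30 min) and the valley from 953001 to 954000 at 0.765 (1815 at 40 min, 3328 at 30 min). On chromosome XII outside the rDNA the highest called peak lay near the left end, from 6001 to 7000, with 793 reads at 40 min and 665 at 30 min and a ratio of 1.67 (1.51 to 1.86), and the valley from 553001 to 554000 stood at 0.743 (1688 at 40 min, 3186 at 30 min).

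By the smoothed ratio, chromosomes VII (1.30), VIII (1.28) and XIV (1.23) had the lowest of these 16 peaks. On chromosome VII the peak from 823001 to 824000 held 1544 reads at 40 min and 1575 at 30 min, a ratio of 1.38, and on chromosome VIII the peak from 127001 to 128000 held 3114 at 40 min and 3462 at 30 min, a ratio of 1.26. On chromosome XIV the peak from 550001 to 551000 held 2749 reads at 40 min and 3013 at 30 min, a ratio of 1.28. Their valleys were in the range of the others. The valley of chromosome VII from 1021001 to 1022000 stood at 0.778 (2025 reads at 40 min, 3653 at 30 min), that of chromosome VIII from 337001 to 338000 at 0.782 (1923 at 40 min, 3451 at 30 min) and that of chromosome XIV from 478001 to 479000 at 0.717 (1837 at 40 min, 3595 at 30 min). Of all 32 windows, the 16 peaks and the 16 valleys do not overlap in ratio, as their choice fixes.

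**Figure D5:**
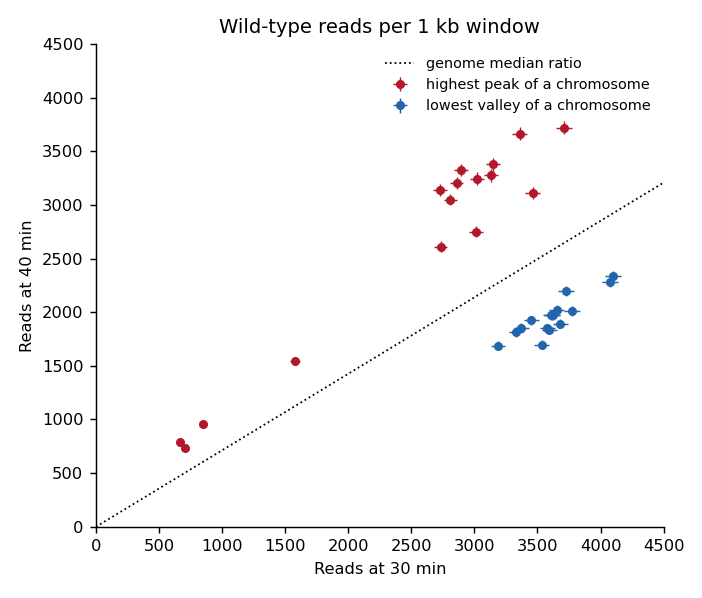
Reads per 1 kb window of wild type at 40 min against 30 min for the highest called peak and the lowest called valley of each chromosome; error bars are the square root of the count, and the dotted line is the genome median ratio of 0.713. Peaks lie above the line and valleys below it by construction, and 4 of the 16 peak windows held 1575 reads or fewer at 30 min.

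The ribosomal DNA, a tandem array of repeats on chromosome XII, is represented by 2 of the windows used, recognised by their place and by over 5 times the median reads. Of these, 459001 to 460000 held 77965 reads at 40 min and 57700 at 30 min, a ratio of 1.90 (1.87 to 1.92), and 460001 to 461000 held 206008 at 40 min and 156448 at 30 min, a ratio of 1.85 (1.83 to 1.86). In the 24 windows used on either side, the ratio ran from 1.04 to 1.44, so both were above all of these neighbours. These reads made the pooled ratio of chromosome XII 1.104 with them and 1.053 without.

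Chromosome ends differed among themselves. Pooled by distance from the end, windows within 10 kb stood at 1.08 (1.07 to 1.08), those at 20 to 30 kb at 1.01, those at 50 to 100 kb at 0.975 and those over 200 kb away at 1.06. Of the 32 ends, each pooled over the windows used in its last 20 kb, 9 were high (28.1%) and 5 low (15.6%). Of all windows taken singly, 30.9% were high and 28.6% low, which is not a like measure, since most ends pool several windows. Of these ends 3 rest on 3 windows or fewer, 1 of them high and 1 low. The highest was the right end of chromosome XIII, at 1.78 (1.76 to 1.81) from 60511 reads at 40 min and 47573 at 30 min. A stretch of 19 windows there, from 899001 to 918000 and chosen after its values were seen, had a wild-type ratio of 1.72, against 1.21 for *pol2-REL*. The right ends of chromosomes XII and XVI followed, at 1.64 and 1.51. The authors state that they left out repetitive sequence before counting, although the rDNA windows kept their reads. The sources used here do not say how much of the ends that covers.

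In *pol2-REL* the same 2 times gave a flatter profile. Wild type had an SD of the log2 40/30 ratio of 0.240, against 0.143 for *pol2-REL* over its 11575 windows. Counting error gave 0.0386 for wild type, against 0.0402 for *pol2-REL*. Of the wild-type windows 30.9% were high and 28.6% low, against 20.6% high and 10.6% low for *pol2-REL*. No library is shared between the 2 ratios, and over the 11567 windows with both their Spearman's rho was 0.56, a description in which the points share genome sequence and protocol and are not independent. Of the 3573 windows high in wild type 50.5% were also high in *pol2-REL*, and of the 2380 high in *pol2-REL* 75.8% were high in wild type. Of the low windows, 18.0% of those of wild type and 48.7% of those of *pol2-REL* were shared. At the wild-type peaks 38.0% of 292 windows were high in *pol2-REL* and 1.71% low. At the wild-type valleys 15.9% of 301 were low in *pol2-REL* and 17.9% high. These shares are to be read against 20.6% high and 10.6% low of all *pol2-REL* windows. Of the 3573 windows high in wild type 57 were low in *pol2-REL*, where 10.6% of all windows were low. Of the 3313 low in wild type 58 were high in *pol2-REL*, where 20.6% of all windows were high.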

How the data were processed

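The authors mapped paired reads of 50 bp to S288c (SacCer2) and deposited read counts per 1 kb window without normalization. They state that repetitive sequence was left out, but the counts used here still hold 2 rDNA windows, 1 of them with 156448 reads at 30 min. The submitters' processing notes name cutadapt, BWA 0.7.8 and Picard 1.110. The sources used here do not say how duplicates were handled or whether a read pair counts once. The 24133 deposited windows start every 500 bp and overlap, so those at every 1 kb were used. The deposited ratios to G1 were not used. The 40/30 ratio was scaled to a median of 1, and the smoothed form is a ratio of Gaussian-weighted counts. Intervals assume independent reads and cover counting error only, 2.65% of the ratio for a median window, and not the difference between cultures. Peak calling and intervals were tested on simulated counts with counting error only and with peaks farther apart than the least distance used. That test cannot show how they do with closer peaks or with spread beyond counting error.

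Members, lists and settings were chosen with earlier results of these data known. Named loci were, by rule, the highest called peak and the lowest called valley of each chromosome and the 5 highest and 5 lowest origins by the *pol2-REL* 30 min ratio; other loci were named after their values were seen, and for chromosome XII the peak outside the rDNA was taken. No genome or annotation of the SacCer2 build was used, so origins, centromeres and genes are not named and no sequence is shown. Alternatives changed the scaling, filter, windows, fold, smoothing and origin positions. Figures were drawn with matplotlib 3.10.9, and values computed with pandas 2.3.3, SciPy 1.17.1 and numpy 2.4.6 under Python 3.11.15.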

Additional observations from a re-analysis of the deposited data

Results flagged for a closer look

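On 5 chromosomes the pooled 40/30 ratio lay on opposite sides of 1 in the 2 genotypes, each scaled to its own median, with counting intervals that leave 1 out in both. With 1 library per condition this difference was not tested, and it rests on 1 as the dividing line. Pooled over all windows the ratio was 1.03 for wild type, against 1.02 for *pol2-REL*. Chromosome XI of wild type and chromosome II of *pol2-REL* are within 0.01 of these, and by median windows chromosome II was below 1 in both, at 0.974 for wild type, against 0.995 for *pol2-REL*. By median windows chromosome XI of wild type was hardly above 1, at 1.0001, against 0.944 for *pol2-REL*. Chromosomes VI, XIV and XVI stayed on opposite sides of 1 by median windows. Below 1 for wild type were chromosome II (0.980, against 1.02 for *pol2-REL*) and chromosome XIV (0.933, against 1.03 for *pol2-REL*). Above 1 for wild type were chromosome VI (1.06, against 0.971 for *pol2-REL*), chromosome XI (1.03, against 0.966 for *pol2-REL*) and chromosome XVI (1.04, against 0.992 for *pol2-REL*).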

How the results depend on the processing

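Of 123 values under alternative settings, 71 stayed within their counting interval or, for counts and shares, within 1.5 times, 51 moved further, and 1 changed sides of 1. The causes were not tested. In the order centre of early origins, flank of early origins, centre of late origins, earliest group and latest group of windows, scaling by library totals gave 1.09, 1.19, 1.04, 1.14 and 0.948, and a running median along each chromosome gave 1.054, 1.15, 1.04, 1.113 and 0.900. A median of 1 on each chromosome gave 1.106 and 1.21 for early origins, 1.15 and 0.968 for the groups, an SD of 0.236 and a span between chromosomes of 1.13. The running median gave an SD of 0.199 and a span of 1.08. Leaving out 30 kb at each end gave 1.12 and 1.23 for early origins, 1.16 for the earliest group and a span of 1.29. No filter gave an SD of 0.259, and 1.17 and 0.973 for the groups. The windows in between gave 1.12 for early centres and 0.973 for the latest group. For early centres, early flanks and late centres, origins from wild-type 30 min over G1 gave 1.13, 1.19 and 1.048, classes of the upper and lower 25% 1.15, 1.25 and 1.052, and origins from *pol2-REL* at 40 min 1.12, 1.21 and 1.049. Groups from *pol2-REL* at 40 min gave 1.21 and 0.931. Groups from wild-type 30 min over G1 gave 1.13 and 1.09, the reversal. That ranking shares the 30 min library with the 40/30 ratio. At a fold of 1.2, 17.1% of windows were high and 11.4% low. Without the rDNA windows, a setting chosen after seeing the data, early centres stood at 1.116 and the earliest group at 1.14. The group with the highest ratio was the earliest one. Peaks numbered from 197 to 396 and valleys from 204 to 396 over all settings. Under every setting that gave both, early flanks stood above early centres. No paired analysis was possible because there is 1 library per condition. Depth limits single windows, where counting error is 2.65%.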

Other observations

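A window that no cell had copied at 30 min and every cell had copied at 40 min would double against a window that did not change. The 40/30 ratio of the window at the 99th percentile was 2.03 times that at the 1st percentile in wild type, and the smoothed ratio had a span of 2.21 times outside the rDNA and the 30 kb at each end, from 0.728 to 1.61. The corresponding span from the 99th to the 1st percentile in *pol2-REL* was 1.57. The rDNA windows, at 1.90 and 1.85 in wild type, stood at 1.08 and 0.995 in *pol2-REL*. What sets a span at or above a doubling in wild type was not tested.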
